A study of Sus scrofa with 4 samples.

Results

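Longissimus dorsi (LD) muscle of Laiwu pigs labelled 240 d old was compared with LD muscle of Laiwu pigs labelled 400 d old, the oldest pair of adjacent ages of the study, to describe which genes and functions still differ between the later ages. The members are the 3 libraries labelled 240 d and the 3 libraries labelled 400 d, chosen by age label, and they are 6 of the 12 RNA-seq libraries of the series, which also holds 3 libraries each labelled 60 d and 120 d. All 12 animals were castrated males of the pure Laiwu breed, a local Chinese pig with very fatty muscle, kept under similar conditions, and each library came from a different animal, so age was the only labelled difference between the groups and animals were not followed over time. Every value below is given by label, because the ages are not the same in all sources. In the published table of differentially expressed genes (DEGs), the columns that hold the values of these libraries are headed 120 d (labelled 240 d here) and 60 d (labelled 400 d here). The study called DEGs between these columns, as 60 d against 120 d, and 206 genes of that list were matched here. Pathways it reported as enriched among its DEGs of 60 d against 120 d included ECM-receptor interaction and focal adhesion. Mean FPKM recomputed from the libraries differed from the matching column by a median of 0.0197 to 0.0199 on the log2 scale, and from the other columns by 0.411 to 1.54. With the ages of that table the direction in time is turned, so a gene that is higher in the libraries labelled 400 d would be higher in the younger animals, and no direction in time is given below. Libraries are called 240 d replicates 1 to 3 and 400 d replicates 1 to 3, in the order of their names.

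The LD is a fast, mostly glycolytic trunk muscle whose fibres are wrapped in basement membrane and bound together by collagen-rich connective tissue. Fat cells between the fibres make the marbling of pork, and they lie in the same connective tissue as fibroblasts, vessels, nerves and immune cells. RNA from a piece of muscle therefore mixes fibres with all of these cells. In growing muscle, matrix genes are mainly active in fibroblasts, while the choice between fat and sugar as fuel is set in the fibres by factors such as PPARGC1A, PPARD and the pyruvate dehydrogenase kinases.

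No gene passed the main test between these ages, whereas the study called DEGs between the same libraries under its own ages. Read counts were fitted with edgeR's quasi-likelihood model over all 12 libraries, and the 12660 features that averaged 10 or more counts in either age group were tested. At a Benjamini-Hochberg adjusted p (FDR) of 0.05, 0 features (0%) were called in either direction, and the smallest adjusted p was 0.26. Without adjustment, 1171 features (9.25%) had a p below 0.05, of which 624 (4.93%) were higher in the libraries labelled 240 d and 547 (4.32%) in those labelled 400 d. FPKM values of the 3 libraries of an age lay wholly apart from those of the other age for 2309 features (18.2%). The DESeq2 Wald test on the 6 libraries alone called 166 features (1.31%) at the same FDR, 85 (0.671%) higher at 240 d and 81 (0.640%) higher at 400 d, and 60 (0.474%) passed the study's own thresholds of an FDR of 0.01 and a 2-fold difference. For the other adjacent ages, edgeR was fitted again in the same way, with the count filter set on the 2 ages compared. Between 60 d and 120 d, 0 of 12945 features were called, with a smallest adjusted p of 0.0658. Of 12993 features, 303 were higher and 408 lower at 240 d than at 120 d, and 28.2% had an unadjusted p below 0.05. These comparisons share libraries, and the difference between their counts was not tested. Because no gene passed, the values below describe these 6 libraries, and "higher" states the order of the measured values.

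**Figure D1:**
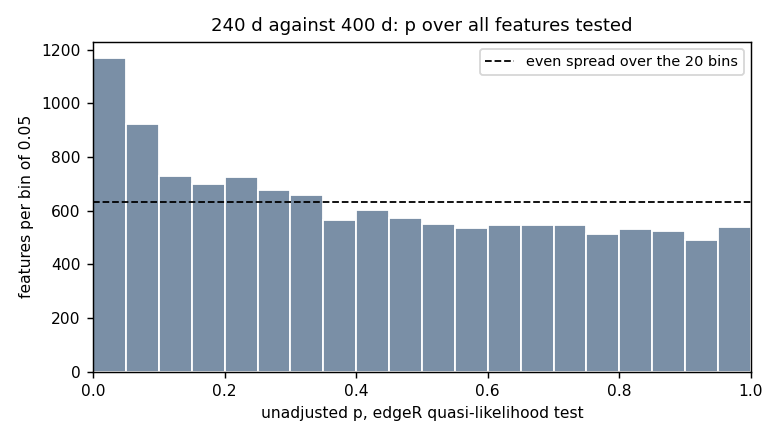
Histogram of the unadjusted edgeR p over the 12660 features tested between the libraries labelled 240 d and 400 d, in 20 bins of width 0.05 (x axis, p; y axis, features per bin). The first bin holds 1171 features against 633 for an even spread (dashed line), and counts decline towards higher p.

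The libraries did not separate by age as wholes. Totals ranged from 11152068 to 11912809 counts at 240 d and from 11250568 to 13325327 at 400 d. Across 13232 features, Pearson's r of log2(FPKM + 0.1) ran from 0.932 to 0.945 within 240 d, from 0.936 to 0.947 within 400 d and from 0.923 to 0.950 between the ages, a description over features that share libraries. FPKM, a count of fragments scaled both to the length of the transcript and to the depth of the library, is used below for levels. ACTA1, the skeletal alpha-actin of the thin filament, was at 57330, 47060 and 33100 FPKM in the 3 libraries labelled 240 d, was listed at 0 in 400 d replicates 1 and 2, and was at 49780 FPKM in 400 d replicate 3. Where it was counted it took 5.64% to 8.57% of all counts, so the 0 is not read as absence of its RNA and no fold is given for it. The other measured markers of the muscle fibre were high in all 6 libraries, MYLPF (a fast myosin light chain) at 8221 to 13430 FPKM and DES (desmin, a filament of muscle) at 3265 to 4558 FPKM. Of the fibre type genes, CASQ1 (calsequestrin, the calcium store of fast fibres) at 1382 to 2554 FPKM and MYL3 (a slow myosin light chain) at 919 to 2283 FPKM were high. PVALB (parvalbumin, a calcium buffer) at 3.34 to 30.0 FPKM was low. The features named MB (myoglobin) at 2.45 to 6.31 FPKM and CASQ2 (the calsequestrin of slow fibres) at 1.32 to 7.69 FPKM were also low. These 2 names came from the study's own annotation, and the values are not read as levels of the named genes.

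Among genes with a symbol, at least 50 counts and no overlap between the ages, the 10 with the smallest p that were higher at 240 d were NID1, RETREG1, COL5A3, DSE, NR4A3, CREM, LYVE1, SPON1, MGP and BMP1. All had an edgeR adjusted p of 0.26 to 0.379, so none passed, and all 10 passed DESeq2. Of these, NID1, COL5A3, DSE, SPON1, MGP and BMP1 code for matrix proteins or for enzymes that process them, a grouping made after their values were seen. NID1 (chr14:59336243-59454745, plus strand, pig build Sscrofa10.2), nidogen 1, which links laminin to type IV collagen in basement membranes, was at 24.9, 25.7 and 24.2 FPKM at 240 d and at 11.6, 8.32 and 14.5 FPKM at 400 d. The 240 d libraries lay within 2 FPKM of each other and all above the 400 d libraries, a 2.18-fold difference (log2 change, 400 d over 240 d, of -1.12 ± 0.22 SE). COL5A3 (chr2:69156097-69198008, minus strand), a chain of type V collagen, was at 22.6, 21.2 and 21.7 FPKM at 240 d against 12.3, 9.57 and 10.7 at 400 d, with a log2 change of -1.10 ± 0.22. At 240 d both genes were nearly level across the libraries.

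The remaining matrix genes of this set had the same order, as the rule that chose them required. DSE, an epimerase that makes dermatan sulfate, was at 2.14, 2.20 and 2.35 FPKM at 240 d and at 1.06, 0.760 and 1.24 FPKM at 400 d. MGP, matrix Gla protein, an inhibitor of calcification, was at 97.0, 99.3 and 155 FPKM against 49.1, 27.5 and 53.4 FPKM, the highest levels of the 10. BMP1, the protease that trims procollagens, was at 7.06, 10.9 and 11.8 FPKM against 3.95, 4.99 and 4.56 FPKM. SPON1, a secreted matrix protein, was low throughout, at 1.72, 1.08 and 2.56 FPKM against 0.378, 0.228 and 0.705 FPKM. In 5 of the 6 matrix genes of the set, all but BMP1, the lowest value was that of 400 d replicate 2.

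RETREG1, NR4A3, CREM and LYVE1 are not matrix genes, and RETREG1 and NR4A3 varied most among the libraries labelled 240 d. RETREG1 (chr16:6168456-6324546, minus strand), a receptor that feeds endoplasmic reticulum into autophagy, was at 18.4, 70.4 and 78.2 FPKM at 240 d and at 4.58, 6.63 and 5.42 FPKM at 400 d, 10.03-fold higher at 240 d (log2 change -3.33 ± 0.65). NR4A3, an orphan nuclear receptor and immediate early gene, was at 7.20, 14.4 and 65.5 FPKM against 0.199, 1.41 and 0.433 FPKM, 40.3-fold higher at 240 d (log2 change -5.33 ± 1.09). Its highest value by far was that of 240 d replicate 3, and without that library the log2 change of NR4A3 was -3.92. CREM, a transcription factor of the cAMP pathway, was at 27.4, 22.3 and 11.6 FPKM against 3.05, 8.32 and 3.17 FPKM, and here 240 d replicate 3 was the lowest of its group. LYVE1, a hyaluronan receptor of lymphatic vessels and of some macrophages, was at 2.05, 2.98 and 5.87 FPKM against 1.42, 0.776 and 1.005 FPKM.

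The 10 genes chosen in the same way that were higher at 400 d were ATP2B2, PPP1R14C, SLC22A16, FAM184B, ASB11, TENT5C, FPGT, PDK3, PEX26 and GPRC5B. Their edgeR adjusted p was 0.26 for each, and all 10 passed DESeq2. ATP2B2 (chr13:73576272-73673698, minus strand), a calcium pump of the plasma membrane, had the smallest unadjusted p of all named genes, 2.4e-05 by edgeR. It was at 3.17, 2.69 and 2.37 FPKM at 240 d and at 8.71, 8.002 and 6.92 FPKM at 400 d, 3.002-fold higher at 400 d (log2 change 1.59 ± 0.24). The gap between the groups was larger than the range of either. PPP1R14C (chr1:17995564-18079248, minus strand), an inhibitor of protein phosphatase 1, was at 20.2, 11.4 and 19.4 FPKM against 63.1, 58.9 and 54.6 FPKM, a log2 change of 1.79 ± 0.32. SLC22A16 (chr1:86021366-86064338, plus strand), a carnitine transporter, was at 11.7, 14.7 and 14.2 FPKM against 30.6, 37.6 and 24.4 FPKM, a log2 change of 1.18 ± 0.22.

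Several of the others act in fuel use or in protein and RNA turnover. PDK3, a kinase that switches off pyruvate dehydrogenase, was at 5.88, 5.21 and 3.82 FPKM at 240 d and at 7.46, 7.14 and 10 FPKM at 400 d. PEX26, needed to import enzymes into peroxisomes, was at 9.89, 8.74 and 7.81 FPKM against 17.6, 17.1 and 13.6 FPKM. ASB11, a substrate receptor of a ubiquitin ligase, was at 34.4, 23.9 and 27.1 FPKM against 52.6, 62.7 and 54.7 FPKM. These 3 genes were 1.78-fold to 1.99-fold higher at 400 d, without overlap. TENT5C, a poly(A) polymerase, was at 2.04, 0.854 and 0.959 FPKM against 6.16, 4.63 and 4.39 FPKM, the largest fold of the 10 at 3.93-fold. FAM184B, FPGT (an enzyme that makes GDP-fucose) and GPRC5B (an orphan G protein-coupled receptor) were 2.90-fold, 2.10-fold and 2.004-fold higher at 400 d. GPRC5B was at 14.5, 9.76 and 9.64 FPKM against 26.4, 22.7 and 18.9 FPKM.

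**Figure D2:**
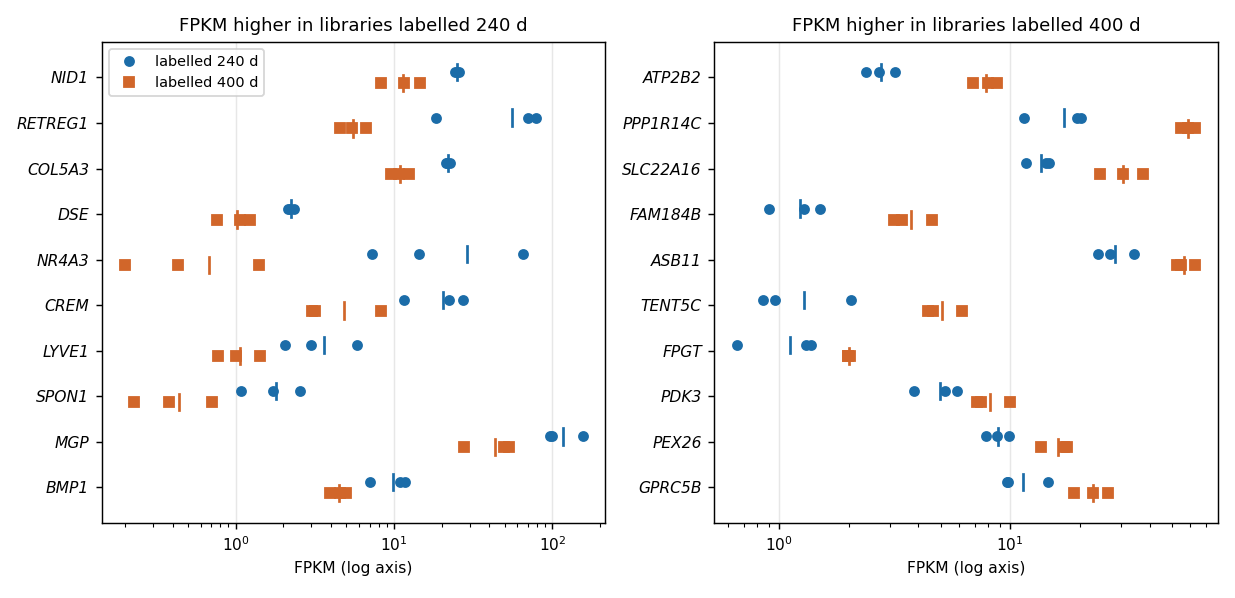
FPKM (log axis) in each library labelled 240 d (circles) and 400 d (squares) for the 10 genes higher at 240 d (left) and the 10 higher at 400 d (right) with the smallest p; short vertical lines are the mean of 3 libraries. Groups do not overlap because the genes were chosen so, and RETREG1 and NR4A3 show the widest spread at 240 d.

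Extracellular matrix genes stood lower at 400 d as a list. All 23 members of the list of collagens, other matrix proteins and their enzymes were tested, and all 23 had a higher fitted level at 240 d, with log2 changes from -1.46 to -0.25 and a median of -0.78, against a median of -0.02 over all features, of which 6682 were higher at 240 d and 5978 at 400 d. None passed edgeR. Of the 23, 10 had an unadjusted p below 0.05 (background 4.93%) and 8 did not overlap (background 9.24%), all higher at 240 d. DESeq2 called 4, ELN, LOX, COL4A1 and COL4A2. Members of the list are not independent of each other, since many are expressed by the same cells.

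ELN, elastin, the rubber-like fibre of vessels and connective tissue, was at 33.9, 14.4 and 29.2 FPKM at 240 d and at 9.29, 7.86 and 11.1 FPKM at 400 d, 2.75-fold higher at 240 d (log2 change -1.46 ± 0.36, adjusted p = 0.379 by edgeR). COL4A1 and COL4A2, the chains of the type IV collagen of basement membranes, ran together. COL4A1 was at 109, 106 and 114 FPKM against 73.1, 42.7 and 69.3 FPKM, and COL4A2 at 60.8, 48.2 and 61.5 FPKM against 34.5, 18.4 and 31.2 FPKM. In both, 400 d replicate 2 was the lowest of the 6 libraries. LOX, the enzyme that cross-links collagen and elastin, was at 4.37, 5.49 and 6.88 FPKM against 2.68, 1.57 and 3.53 FPKM, and SPARC, a matrix protein that binds collagen, at 433, 286 and 400 FPKM against 271, 135 and 217 FPKM.

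COL1A1, COL1A2 and COL3A1, chains of the main fibril-forming collagens, overlapped between the ages, and COL5A2, a chain of a minor one, did not. COL1A1 was at 236, 132 and 180 FPKM at 240 d and at 141, 33.4 and 74.5 FPKM at 400 d (log2 change -1.14 ± 0.62). COL3A1 was at 404, 248 and 374 FPKM against 249, 83.5 and 152 FPKM (log2 change -1.08 ± 0.46). Here 400 d replicate 1 lay above 240 d replicate 2, and 400 d replicate 2 was far below all others. The small leucine-rich proteoglycans DCN and LUM were among the members that differed least, with log2 changes of -0.38 ± 0.39 and -0.25 ± 0.46.

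The matrix values depended on single libraries. Without 400 d replicate 2, 4 of the 23 members had an unadjusted p below 0.05, 22 were higher at 240 d and the median log2 change was -0.52. The number with a p below 0.05 was 5 without 240 d replicate 1 and 4 without 240 d replicate 3. It was 11 without 240 d replicate 2, 12 without 400 d replicate 1 and 9 without 400 d replicate 3. Over all 12660 features, those higher at 240 d with a p below 0.05 numbered 624 with none left out. They were 642, 572 and 352 without 240 d replicates 1, 2 and 3 in turn. Without 400 d replicates 1, 2 and 3 in turn they were 484, 408 and 656. The number of members that did not overlap was 20 without 240 d replicate 2, 15 without 400 d replicate 1 and 12 without 400 d replicate 3. It was 8 without each of the others. Over all 12660 features, those higher at 240 d without overlap also rose in number when a library was left out. They were 2046 without 240 d replicate 2, 1659 without 400 d replicate 1 and 1997 without 400 d replicate 3, against 1170 with none left out. Without 240 d replicate 1, 240 d replicate 3 and 400 d replicate 2 they were 2092, 1611 and 1822. The median stayed between -1.01 and -0.52 whichever library was left out.

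Markers of cells other than fibres were low in the same libraries as the matrix genes. For 7 of the 8 lists of such markers, 400 d replicate 2 had the lowest sum of all 6 libraries. The fibroblast sum (4 of 6 markers measured, all of them also in the matrix list) was 556 to 856 FPKM at 240 d and 224 to 569 FPKM at 400 d, and that of smooth muscle cells and pericytes (4 of 5) was 182 to 317 against 131 to 175 FPKM, without overlap. The red blood cell sum (2 of 4) was 134 to 274 against 57.2 to 100 FPKM, also without overlap. The sums of the others overlapped, those of endothelial cells (3 of 6) at 47.0 to 68.2 against 28.6 to 47.9 FPKM, Schwann cells and nerve (3 of 6) at 27.3 to 49.3 against 19.9 to 44.8 FPKM, and satellite cells (3 of 4) at 8.15 to 17.8 against 10.16 to 11.25 FPKM. No measured marker was at 0 in all 6 libraries. The part of these cells in the matrix values was not tested, and in RNA from whole muscle fewer cells of a type cannot be told apart from less RNA per cell.

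**Figure D3:**
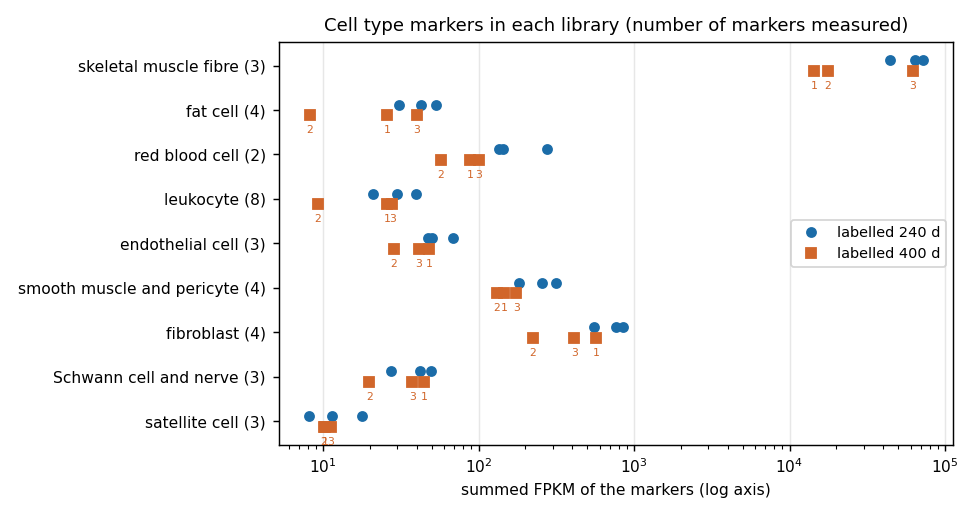
Summed FPKM (log axis) of the markers of each cell type in each library labelled 240 d (circles) and 400 d (squares, numbered by replicate), with the number of markers measured in brackets. 400 d replicate 2 is the lowest library for 7 of the 8 lists other than the muscle fibre, and the split in the muscle fibre row follows ACTA1, listed at 0 in 400 d replicates 1 and 2.

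Immune cell genes lay on the same side as the matrix with no member past an unadjusted p of 0.05. In the leukocyte list 14 of 15 tested members were higher at 240 d, the median log2 change was -0.63, and 4 did not overlap (background 9.24%), C1QA, C1QB, C1QC and CD14. For C1QA the nearest values of the ages were 15.96 and 15.93 FPKM. C1QB, a chain of the complement component made by macrophages, was at 2.46, 2.31 and 3.10 FPKM at 240 d and at 1.35, 0.683 and 1.35 FPKM at 400 d, and CD14, the lipopolysaccharide co-receptor of monocytes, at 2.88, 2.54 and 4.23 FPKM against 1.87, 1.90 and 2.15 FPKM. The leukocyte marker sum (8 of 10 markers measured) was 21.0 to 39.8 against 9.26 to 27.9 FPKM, lowest in 400 d replicate 2. The median of the list was -0.23 without that library and -0.30 without 240 d replicate 3. In the list of chemokines and cytokines, 0 of 12 had a p below 0.05, and CCL21, which guides cells to lymph vessels, was at 6.44, 3.22 and 8.84 FPKM against 3.30, 1.32 and 1.73 FPKM, while TGFB1, a growth factor that drives matrix production, had a log2 change of -0.42 ± 0.31. Of 11 interferon response genes, only OAS2, an antiviral RNA sensor, had a p below 0.05 (higher at 400 d, background 4.32%). It was at 1.28, 1.44 and 1.20 FPKM against 2.99, 0.740 and 4.26 FPKM, so the libraries labelled 400 d lay on both sides of those labelled 240 d. IFIT2, another member, had a log2 change of -0.39 ± 0.38.

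No gene of the fat cell or fatty acid synthesis lists had an unadjusted p below 0.05. In the fat cell and lipid droplet list 10 of 15 were higher at 240 d, with a median log2 change of -0.61, and 1 without overlap (CEBPD, background 9.24%). LIPE, hormone-sensitive lipase, was at 21.7, 11.8 and 15.4 FPKM at 240 d and at 7.14, 4.62 and 12.0 FPKM at 400 d, and PPARG, the master regulator of fat cell formation, at 3.46, 1.83 and 3.30 FPKM against 1.79, 0.480 and 2.40 FPKM. Both overlapped and both were lowest in 400 d replicate 2, which also had the lowest sum of fat cell markers (4 of 6 measured, 8.22 FPKM, against 25.9 and 40.3 in the other libraries labelled 400 d and 30.6 to 53.2 at 240 d). The median of the list was -0.15 without 240 d replicate 1, -0.35 without 400 d replicate 2 and -0.73 without 400 d replicate 3. Members without overlap that were higher at 240 d numbered 6 without 240 d replicate 2 and 6 without 400 d replicate 3. Over all 12660 features, 2046 and 1997 were so without these libraries, against 1170 with none left out. Without 400 d replicate 3, 2 members had a p below 0.05 and were higher at 240 d, as were 656 of all features. LEP, leptin, a fat cell hormone given because its sign differed from that of the list, had a log2 change of 1.306 ± 1.005.

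FASN, the fatty acid synthase, was at 11.8, 14.0 and 12.0 FPKM at 240 d and at 6.24, 0.656 and 4.54 FPKM at 400 d, 3.28-fold higher at 240 d (log2 change -1.72 ± 0.82, adjusted p = 0.552 by edgeR). All libraries labelled 240 d lay above all labelled 400 d, and the lowest was again 400 d replicate 2. In the fatty acid synthesis and desaturation list 8 of 12 were higher at 240 d (median log2 change -0.36) and 4 did not overlap (background 9.24%), FASN, ACLY, ACACA and ELOVL1. The median was -0.16 without 400 d replicate 2. ELOVL1, a fatty acid elongase, was at 1.07, 1.15 and 1.42 FPKM against 0.857, 0.857 and 0.953 FPKM. SCD, the stearoyl-CoA desaturase, given although the naming rule did not choose it, was at 4.71, 10.1 and 18.3 FPKM against 20.8, 1.11 and 5.33 FPKM, a spread within each age larger than the difference between them. The cholesterol list was divided, with 13 of 21 higher at 240 d and a median of -0.10. FDFT1, squalene synthase, was at 61.4, 54.2 and 36.3 FPKM at 240 d and at 80.0, 96.8 and 73.1 FPKM at 400 d, whereas LSS, which acts later in the same pathway, was at 2.22, 1.60 and 1.65 FPKM against 1.65, 0.952 and 0.945 FPKM. These were the only members with an unadjusted p below 0.05, 1 in each direction (background 4.93% at 240 d and 4.32% at 400 d).

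In the list of fatty acid oxidation and fuel switch, the 2 members with an unadjusted p below 0.05 (background 4.93%) were regulators, PPARGC1A and PPARD. Of 17 members, 12 were higher at 240 d (median log2 change -0.17, or -0.32 to -0.03 with single libraries left out), and 4 did not overlap (background 9.24%), PPARGC1A, PDK4, UCP3 and PPARA. PPARGC1A, the coactivator that drives mitochondrial gene expression, was at 6.34, 15.5 and 62.6 FPKM at 240 d and at 2.67, 3.08 and 4.63 FPKM at 400 d (log2 change -3.01 ± 0.94, adjusted p = 0.406 by edgeR). As with NR4A3, 240 d replicate 3 was far above the others, and without it the log2 change of PPARGC1A was -1.62. PPARD, the nuclear receptor for fatty acids in muscle, was at 7.69, 11.4 and 14.9 FPKM against 6.27, 7.81 and 6.32 FPKM. PDK4, the kinase that spares glucose in fasting, named here beside PDK3 after its values were seen, was at 509, 1072 and 617 FPKM against 42.9, 360 and 422 FPKM, with a log2 change of -1.42 ± 1.10 of the opposite sign to that of PDK3 (0.96 ± 0.20). The oxidation enzymes HADHA and ACADM had log2 changes of 0.07 and 0.20, with edgeR p of 0.73 and 0.32 before adjustment.

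Sugar metabolism leaned to 400 d by small amounts. Of 17 genes of glycolysis and glycogen, 13 were higher at 400 d, with a median log2 change of 0.27, 4 without overlap (background 9.0%), FBP2, GAPDH, PRKAG3 and PFKFB4, and 1 with an unadjusted p below 0.05 (background 4.32%). The median stayed between 0.17 and 0.37 whichever library was left out. PFKFB4, which makes an activator of glycolysis, was at 4.68, 4.62 and 2.89 FPKM at 240 d and at 10.4, 6.12 and 6.05 FPKM at 400 d, a log2 change of 0.90 ± 0.34. PRKAG3, the muscle-specific AMP kinase subunit that affects glycogen in pig muscle, was at 26.0, 24.0 and 19.7 FPKM against 28.6, 41.8 and 32.4 FPKM. HK2, which traps glucose in the fibre, went the other way with a log2 change of -0.62 ± 0.66. It was at 3.97, 1.41 and 18.8 FPKM at 240 d and at 7.16, 4.31 and 3.47 FPKM at 400 d, with 240 d replicate 3 far above the others.

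Respiratory genes coded in the nucleus were nearly level, with log2 changes of all 16 between -0.27 and 0.17 and a median of -0.03. NDUFB5, a subunit of complex I, was at 111, 115 and 107 FPKM at 240 d and at 85.7, 101 and 91.8 FPKM at 400 d, and ATP5F1A, a subunit of ATP synthase, at 619, 504 and 630 against 500.5, 454 and 557 FPKM. Of 10 listed transcripts of the mitochondrial genome, 9 were higher at 400 d with a median of 0.26, and 5 did not overlap (background 9.0%), ND1, ND2, ND4L, COX1 and CYTB, with none at a p below 0.05. ND1 was at 3587, 2459 and 3215 FPKM against 4181, 4168 and 4038 FPKM, and CYTB at 5894, 4429 and 5306 against 5895, 7913 and 6172 FPKM, where the ages are 1 FPKM apart at their nearest. The median was 0.09 without 240 d replicate 2, the lowest library for both transcripts, in which mitochondrial features took 5.90% of counts against 9.01% to 9.76% in the other 5.

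The fibre type genes that were measured gave no separation. Of 13 genes of the fast list and 12 of the slow list, 8 each had a feature with that symbol. The myosin heavy chains MYH1, MYH2, MYH4 and MYH7 had none and were not measured. Both counts below include features named by the study's own annotation, ACTN3 in the fast list and MB and CASQ2 in the slow list. Of the fast fibre list 7 of 8, and of the slow fibre list 6 of 8, had a higher fitted level at 400 d, with medians of 0.19 and 0.25, and 0 members of either list had a p below 0.05 or no overlap. CASQ1 had a log2 change of 0.42 ± 0.31 and MYL3 of 0.49 ± 0.36, and CA3, the carbonic anhydrase of slow fibres, of 0.35 ± 0.28. ACTN3, the actinin of fast fibres, is a name taken from the study's own annotation, and its feature was at only 0.666 to 1.72 FPKM. With single libraries left out, the median of the fast list ran from 0.04 to 0.35 and that of the slow list from -0.03 (without 240 d replicate 2) to 0.36.

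Among genes of muscle growth and stress response a few single genes stood out. ANKRD1, a stretch-induced protein of the sarcomere and the nucleus, was at 51.9, 1813 and 587 FPKM at 240 d and at 32.6, 60.4 and 28.2 FPKM at 400 d (log2 change -4.34 ± 1.26, adjusted p = 0.393 by edgeR). The groups overlapped, since 240 d replicate 1 lay below 400 d replicate 2, and without 240 d replicate 2, the highest, the log2 change of ANKRD1 was -2.99. MSTN, myostatin, which limits muscle growth, was at 3.73, 0.963 and 1.55 FPKM at 240 d and at 6.05, 6.72 and 4.99 FPKM at 400 d, without overlap (log2 change 1.498 ± 0.49). DESeq2 called both, and they were the only 2 of 16 myogenic and developmental genes with a p below 0.05 (background 4.93% at 240 d and 4.32% at 400 d). Of 11 atrophy and autophagy genes, 7 were higher at 240 d. Members without overlap were 3 higher at 240 d (background 9.24%) and 2 higher at 400 d (background 9.0%). Only CTSL, a lysosomal protease, had a p below 0.05 (background 4.93%). It was at 1.21, 1.08 and 1.91 FPKM against 0.372, 0.274 and 0.671 FPKM, on few counts, 18, 16 and 35 against 7, 5 and 12. FOXO4, a transcription factor of the atrophy programme, was at 32.5, 33.8 and 32.0 against 39.7, 44.5 and 43.7 FPKM.

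Immediate early genes did not move as a group. Of 17 members, 7 were higher at 240 d and 10 at 400 d, with a median of 0.10, which ran from -0.70 to 0.77 when single libraries were left out. NR4A3, ATF3 and KLF6 were the 3 with a p below 0.05, all higher at 240 d (background 4.93%). FOS and EGR1 had log2 changes of 1.35 and 0.84 with unadjusted edgeR p of 0.27 and 0.41. KLF6, a zinc finger factor, was at 11.2, 8.38 and 10.1 FPKM at 240 d and at 3.53, 4.15 and 5.98 FPKM at 400 d (log2 change -1.14 ± 0.35), and DESeq2 called it. In the heat shock list 10 of 14 were higher at 240 d (median -0.49). DNAJB4, a co-chaperone, was at 45.8, 154 and 55.8 FPKM against 31.2, 48.4 and 36.6 FPKM, and HMOX1, haem oxygenase, at 5.01, 6.17 and 16.0 against 5.24, 6.68 and 2.42 FPKM. Each was high in a single library, and the median of the list ran from -0.78 without 240 d replicate 1 to -0.12 without 240 d replicate 2. PSAT1, of serine synthesis, was at 2.82, 2.42 and 2.41 against 1.56, 0.670 and 1.79 FPKM. It was the only 1 of 9 genes of amino acid and unfolded protein response with a p below 0.05 (background 4.93%). DDIT3 of the same list had a log2 change of -0.74 ± 0.35.

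Of 12 clock genes, 2 on each side had a p below 0.05 (background 4.93% at 240 d and 4.32% at 400 d). These numbers were 3 higher at 240 d and 5 higher at 400 d without 240 d replicate 1, and 2 and 1 without 400 d replicate 3. They were 1 on each side without each of the other libraries. Over all 12660 features, the numbers were 624 higher at 240 d and 547 higher at 400 d with none left out. Without 240 d replicates 1, 2 and 3 in turn they were 642 and 626, 572 and 424, and 352 and 364. Without 400 d replicates 1, 2 and 3 in turn they were 484 and 348, 408 and 381, and 656 and 507. BHLHE41, a repressor of the clock, was at 4.44, 3.26 and 3.57 FPKM at 240 d and at 12.8, 12.4 and 5.33 FPKM at 400 d (log2 change 1.43 ± 0.31, adjusted p = 0.26 by edgeR). CRY2, another repressor, was at 72.7, 60.9 and 29.3 FPKM against 21.1, 24.9 and 28.8 FPKM (log2 change -1.14 ± 0.33). The gap for CRY2 between 240 d replicate 3 and 400 d replicate 3 was under 1 FPKM. NPAS2, an activator, was higher at 240 d and NR1D2, a repressor, higher at 400 d, with log2 changes of -1.29 and 0.66. DESeq2 called BHLHE41 and CRY2. The hour at which each muscle was taken was not used here.

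Of the genes of excitation and calcium handling, SCN4A, the sodium channel of the muscle action potential, was at 43.4, 34.3 and 28.4 FPKM at 240 d and at 51.7, 55.6 and 49.7 FPKM at 400 d (log2 change 0.51 ± 0.17), without overlap. CACNA1S and JPH1, of the contact between surface membrane and calcium store, were also higher at 400 d without overlap, while KCNC1, a potassium channel, was at 3.63, 2.81 and 9.46 FPKM against 1.28, 1.36 and 1.95 FPKM. In all, 6 of 9 members were higher at 400 d and 3 at 240 d. Members without overlap were 3 higher at 400 d (background 9.0%) and 2 higher at 240 d (background 9.24%). Those with an unadjusted p below 0.05 were 1 higher at 400 d (background 4.32%) and 2 higher at 240 d (background 4.93%), so the list was divided. In the list of insulin and hormone signalling, 9 of 13 members were higher at 400 d, with a median log2 change of 0.16. Of those higher at 400 d, 1 had an unadjusted p below 0.05 (background 4.32%) and 1 did not overlap (background 9.0%). For those higher at 240 d, both numbers were 0. INSR, the insulin receptor, went against the list with a log2 change of -0.65 ± 0.34. DESeq2 called KCNC1. Of 17 cell cycle genes, 10 had a feature with that symbol and 4 of these had enough counts to be tested. TOP2A and AURKB had log2 changes of -0.36 ± 0.51 and 0.36 ± 0.35.

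**Figure D4:**
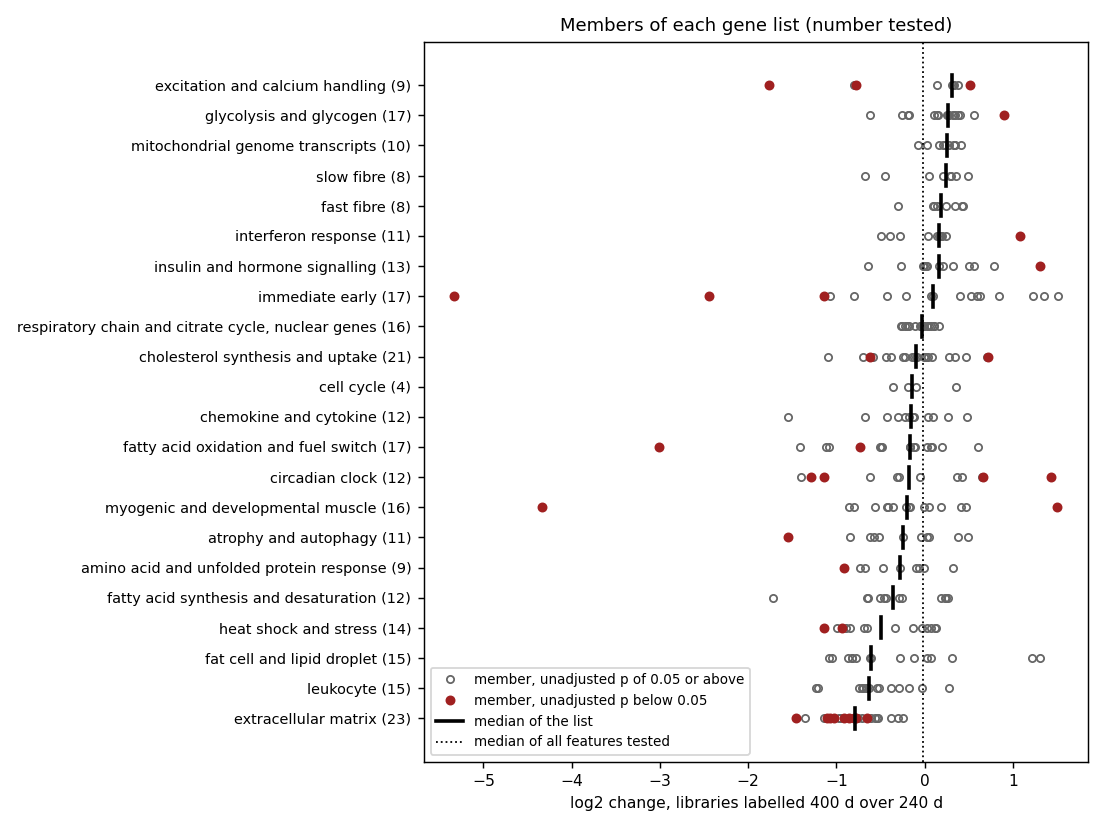
Log2 change (libraries labelled 400 d over 240 d, x axis) of each tested member of 22 gene lists, ordered by the list median (thick bar), with the number tested in brackets; filled points have an unadjusted edgeR p below 0.05 and the dotted line is the median of all features, -0.02. The extracellular matrix list lies wholly to the left, and no point passed an FDR of 0.05.

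The named genes were set beside the other ages as levels, without a test. NID1 had mean levels of 36.9, 23.7, 24.9 and 11.5 FPKM in the libraries labelled 60, 120, 240 and 400 d, and COL5A3 of 26.1, 22.1, 21.8 and 10.9 FPKM, so for both the libraries labelled 400 d were the lowest of the series. MGP ran from 285 and 143 FPKM to 117 and 43.4 FPKM, and COL4A2 from 107 and 88.9 FPKM to 56.8 and 28.0 FPKM. ATP2B2 had means of 1.47, 2.94, 2.74 and 7.88 FPKM and SLC22A16 of 8.36, 12.5, 13.5 and 30.9 FPKM, both highest in the libraries labelled 400 d. For others the mean of the 240 d libraries was the lowest or the highest, with overlap between libraries in some. TENT5C was at 4.30, 8.04, 1.28 and 5.06 FPKM, PPP1R14C at 32.3, 32.7, 17.0 and 58.9 FPKM and GPRC5B at 23.9, 26.4, 11.3 and 22.7 FPKM, each with its lowest mean at 240 d, although for PPP1R14C a library labelled 120 d (18.1 FPKM) lay within the 240 d range. PPARGC1A, at 8.61, 1.54, 28.1 and 3.46 FPKM, and RETREG1, at 24.7, 32.1, 55.7 and 5.54 FPKM, had their highest mean at 240 d, although in both 240 d replicate 1 lay below a library labelled 60 d. FASN had means of 43.6, 12.9, 12.6 and 3.81 FPKM.

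**Figure D5:**
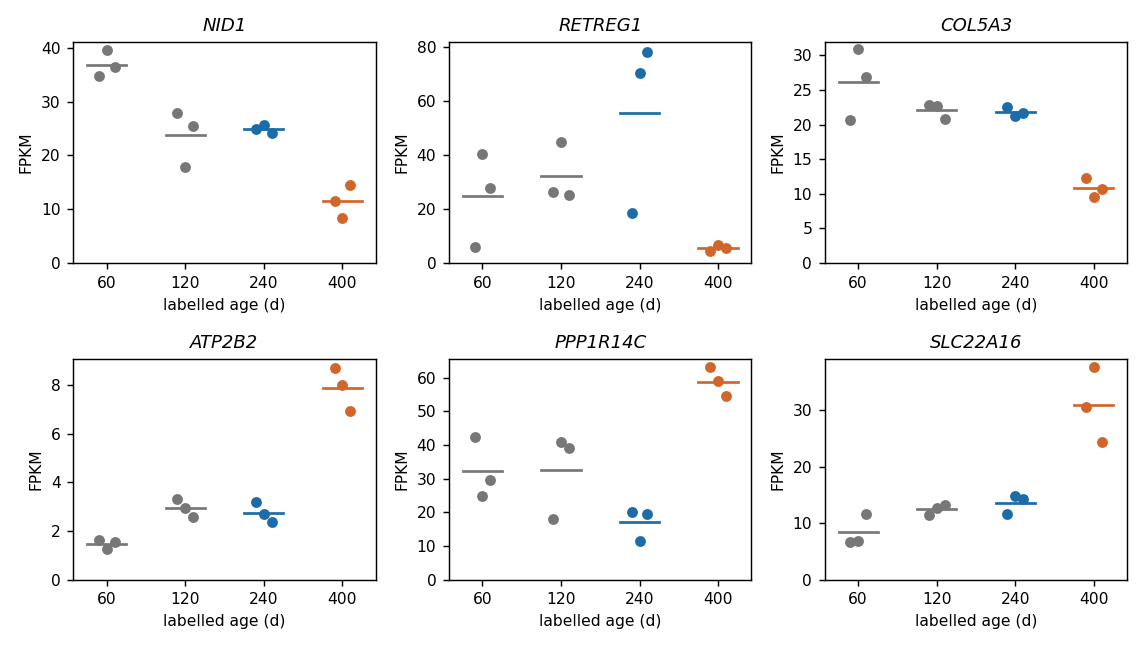
FPKM (y axis, from 0) of 6 genes in each of the 12 libraries by labelled age in days (x axis); points are libraries and the line is the mean of 3. The libraries labelled 400 d are the lowest for NID1 and COL5A3 and the highest for ATP2B2, PPP1R14C and SLC22A16, and RETREG1 is most spread at 240 d.

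Features without a gene symbol made up 4387 of those tested, and 389 of them (8.87%) had an unadjusted p below 0.05, against 782 of 8273 (9.45%) with a symbol. DESeq2 called 47 and 119 of them. Of those with the smallest p among the unnamed, ENSSSCG00000005750 (chr1:307780257-307851628, minus strand) was at 2.49, 2.28 and 2.67 FPKM at 240 d and at 0.600, 0.429 and 1.22 FPKM at 400 d. ENSSSCG00000015683 (chr15:15277896-15352100, minus strand) had the opposite order, at 3.76, 3.20 and 2.56 FPKM against 9.98, 7.09 and 7.62 FPKM. No function is given for either.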

How the data were processed

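The authors sequenced LD muscle RNA as paired reads (HiSeq2500), aligned them with TopHat2 to the pig build Sscrofa10.2 and assembled and quantified genes with Cufflinks. Tool versions in that description are not given in the sources used here, and the submitters' processing notes list Bowtie 0.12.2, Cufflinks and the mouse build mm8, which is not the build of the pig loci in the files. The deposited counts are whole reads per gene, and the deposited FPKM values are scaled by the authors for transcript length and depth. Another column per library, a normalized value, was not used. Each labelled age has 1 sample with 3 libraries. The files hold 22658 features, 1440 of them newly assembled. Symbols came from an identifier table (11472) and, for a further 373, from the study's annotation, which gave another symbol for 193 of 1170 identifiers present in both. CREM, MGP, COL1A1, COL4A1, ELOVL1, CEBPD, LEP, ACTN3, MB, CASQ2, C1QB, C1QC, CCL21, KLF6, HMOX1 and DDIT3 carry such a name. The kit is not stated to mark strand, so antisense and overlapping genes cannot be told apart.

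Counts were tested with edgeR 4.0.16 (R 4.3.3; TMM factors, quasi-likelihood, 12 libraries in 1 fit, 8 residual degrees of freedom, features that averaged 10 or more counts in either age group, Benjamini-Hochberg FDR of 0.05) and, as alternatives, with DESeq2 1.42.0 and with limma 3.58.1 on log2(FPKM + 0.1) and log2(FPKM + 1). "Higher" and log2 changes come from the edgeR fit, levels from FPKM, with SE on the log2 scale. Scripts were tested on simulated counts. An exact permutation test of single FPKM values was not used for calls, because 3 against 3 cannot go below p = 0.1. Named genes were the 10 in each direction with the smallest p among features with a symbol, at least 50 counts and no overlap in FPKM, plus the 2 members of each list with the smallest p. Some genes that this rule or a list would name are not reported here. Members and lists were chosen with earlier results of these data known. Totals ranged from 9713813 to 13325327 counts over 12 libraries, and 3 counts in a library labelled 240 d or 400 d equal 0.225 to 0.269 CPM. Differences between libraries of an age exceeded counting noise, with no duplicate library.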

Additional observations from a re-analysis of the deposited data

How the results depend on the processing

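No feature was called at an FDR of 0.05 with edgeR on the 6 libraries alone, with DESeq2 size factors, with no count filter or a stricter one, or with limma at either pseudocount, and the counts of calls without each library in turn ran from 0 to 0 for both directions and for every list. Only DESeq2's Wald test made calls, with 85 and 81 features higher at 240 d and 400 d on 6 libraries, 29 and 38 on 12 libraries, and 37 and 23 on 6 libraries at an FDR of 0.01 and 2-fold, the latter pair of settings chosen after seeing the data. On 6 libraries it called 4 members of the extracellular matrix list, 2 each of the myogenic, immediate early and circadian lists and 1 each of the excitation and insulin lists; the cause of the difference between the tools was not tested. Of the 63 named genes, DESeq2 on 6 libraries called 29. Over 819 pairs of a gene and an alternative, 767 kept direction and call, 51 passed only with DESeq2, and 1 turned. This was the log2 change of TOP2A, which ran from -1.019 without 400 d replicate 1 to 0.00619 without 400 d replicate 2. No paired analysis was possible because the libraries carry no number or label that pairs animals across ages. With 3 libraries an age the SE of a log2 change was 0.17 to 1.26 for named genes, and features that averaged fewer than 10 counts in both age groups were not tested. The lists without single libraries were also an alternative chosen after seeing the data.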

Other observations

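ACTA1 was also listed at 0 in all 3 libraries labelled 60 d and in 120 d replicates 1 and 3, while 120 d replicate 2 held 893060 counts of it, 8.09% of its total. The libraries with a value were thus 5 of 12, and no library had an intermediate one.

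The spread between libraries of one labelled age, as the median over 12660 features of the SD of log2(FPKM + 0.1) with n = 3, was 0.278 for the 240 d libraries and 0.256 for the 400 d libraries, beside 0.276 for 120 d and 0.384 for 60 d. The libraries labelled 240 d and 400 d were thus close to those labelled 120 d in this median, and the wide spread of NR4A3, ANKRD1 and PPARGC1A at 240 d concerns those genes. These genes were also widely spread at 60 d. In the libraries labelled 60 d, NR4A3 was at 7.13, 4.70 and 33.75 FPKM, ANKRD1 at 82.2, 820 and 3581 FPKM and PPARGC1A at 1.36, 3.99 and 20.5 FPKM.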
